A study of Mus musculus with 8 samples.

Results

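The 42 genes described here encode nucleolar proteins and factors that build ribosomes. They were taken by gene symbol from a table of 55487 genes measured in 8 RNA libraries of mouse embryos at the 2-cell stage, and all 42 were present. All 42 also passed the filter on low counts, which kept 13146 genes for testing. The list was divided by role into 9 genes of small nucleolar ribonucleoproteins (snoRNPs), 12 of the small-subunit (SSU) processome, 12 of large-subunit assembly, 6 of RNA polymerase I and ribosomal DNA transcription, and 3 nucleolar histone chaperones.

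Ribosomes are assembled in the nucleolus, where RNA polymerase I transcribes a long precursor of ribosomal RNA (rRNA). Box C/D and box H/ACA snoRNPs modify this precursor, the SSU processome folds and cuts its 5′ portion into the pre-40S particle, and a separate set of factors assembles the pre-60S particle. In the mouse, the oocyte and zygote hold compact nucleolus precursor bodies, and rRNA transcription resumes around the 2-cell stage as the embryo's own genome is activated, so that maternal and newly made mRNA of these genes can both be present.

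The study asked how knockdown of Polq, which encodes DNA polymerase theta, affects the transcriptome. All embryos were injected at the 1-cell stage with CasRX, an RNA-guided nuclease that cuts RNA, 20 h after the hormone hCG was given, and were lysed for RNA 10 h after injection. The 4 control samples (genotype labelled WT) received CasRX and no guide is named for them, and the 4 knockdown-labelled samples also received a guide RNA against Polq. Each sample pooled 5 embryos, and neither strain nor maternal age is stated in the sources used here. Nothing beyond the term biological replicate says how the pools were separated, so that p-values measure the spread between these samples.

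Controls held 33311679 to 43748629 counts. Knockdown-labelled replicates 1, 2 and 3 held 4726160, 8627402 and 8100972 counts, and replicate 4 held 33650068, so that group and depth partly coincide. The targeted gene did not separate the groups: Polq was at 34.6, 49.7, 40.1 and 32.7 CPM (counts scaled to a common library size, with TMM factors) in control replicates 1 to 4 and at 16.9, 38.9, 29.2 and 41.1 CPM in knockdown-labelled replicates 1 to 4 (2-sided exact permutation p = 0.343, where 0.0286 is the smallest possible). The libraries are therefore named by their label, and every difference is knockdown-labelled minus control. Oocyte markers, led by Oosp1, summed to 3424 to 5911 CPM among controls and 3729 to 5895 CPM among knockdown-labelled ones, and markers of the 2-cell burst to 867 to 1504 and 850 to 1490 CPM. Of 12 cumulus cell markers, 8, Ptx3 and Has2 among them, had no count in any library, as did 5 of 6 sperm markers. The other cumulus markers did have counts, and the list summed to 18.9 to 59.9 CPM among controls and 21.6 to 38.4 CPM among knockdown-labelled libraries. Gja1 was the most abundant (6.80 to 53.6 and 16.9 to 25.5 CPM), and Tnfaip6 was at 0 to 16.2 and 0 to 10.7 CPM. The sperm marker with counts, Prm2, was at 0 to 7.06 and 0 to 7.34 CPM. In pooled embryos, fewer copies per cell and fewer contributing cells cannot be told apart.

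The genes of the list spanned a wide range of levels, with Brix1, a factor of pre-60S assembly, at the top in both groups. Per kilobase of annotated exon, Brix1 averaged 1004 CPM over the 8 libraries, Npm1 777 CPM, Nop10 754 CPM and Nhp2 456 CPM, against a median of 9.96 CPM for the 42 genes and 2.60 CPM for the 12788 tested genes with an exon length. On that scale Brix1 ranked 57 among those genes. Other genes of the list were far lower: Polr1a and Polr1b, which encode the largest subunits of RNA polymerase I, averaged 1.51 and 1.36 CPM per kilobase, the rRNA methyltransferase gene Fbl 3.92, and the large SSU scaffolds Utp20 and Heatr1 1.35 and 1.13. In all, 36 of the 42 genes lay above the median of the tested genes on this scale. Exon lengths join all annotated transcripts of a gene, so that genes with long rare transcripts are understated.

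**Figure D1:**
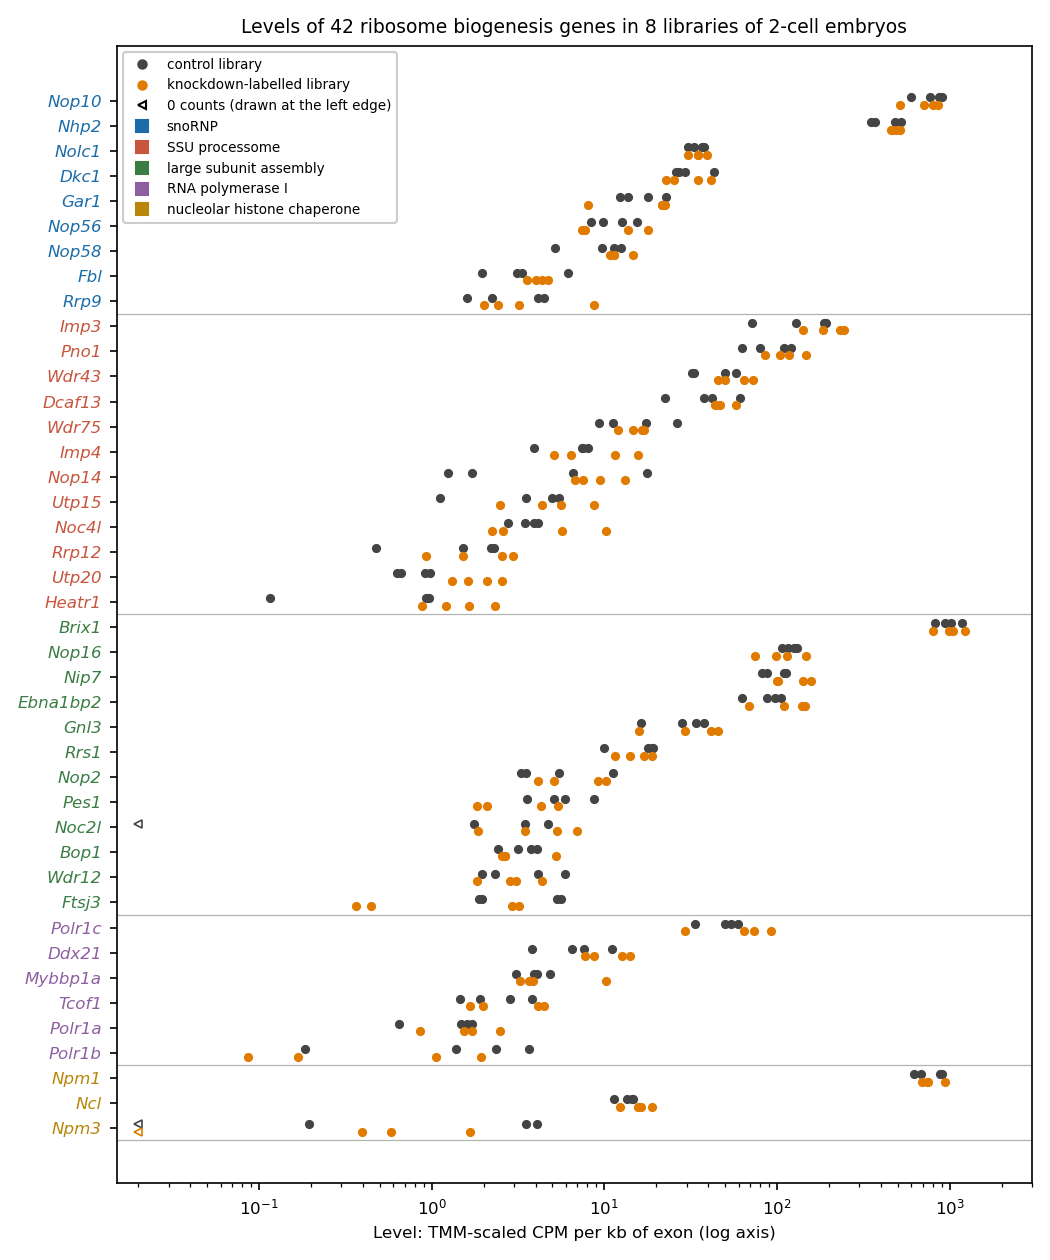
Level of each of the 42 genes in each library, as TMM-scaled CPM per kilobase of exon on a log axis, with 1 point per library (grey for 4 controls, orange for 4 knockdown-labelled libraries), grouped by role and ordered by mean; open triangles at the left edge are libraries with 0 counts. Brix1, Npm1, Nop10 and Nhp2 form the top, and apart from Utp20 every gene has overlapping grey and orange points.

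Levels within a complex were unequal. The 4 core proteins of box H/ACA snoRNPs, which guide pseudouridylation, averaged 754 (Nop10), 456 (Nhp2), 31.3 (the pseudouridine synthase Dkc1) and 17.6 (Gar1) CPM per kilobase. Of the box C/D core, which guides 2′-O-methylation, Nop56 averaged 11.7, Nop58 10.9 and Fbl 3.92 CPM per kilobase. The PeBoW complex of pre-60S assembly (Pes1, Bop1 and Wdr12) was at 4.62, 3.32 and 3.31 CPM per kilobase, far from Brix1. The order in these last 2 complexes depends on the exon lengths. By CPM alone, Snu13 averaged 1848, Nop58 117, Nop56 47.9 and Fbl 16.5, and Wdr12 averaged 39.5, Pes1 14.0 and Bop1 9.81. These are levels of RNA and not of protein.

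Promoter windows of 35 of the 42 genes were found in the RefSeq table (GRCm38.p6), 38 windows of 300 bases in all, from 250 bases before to 50 after a start. On either strand, the E-box CACGTG, the site of Myc family factors, was in 7 of 38 windows (18.4%), against 9.95% of the windows of tested genes and 7.15% of all windows. The ETS core CCGGAAG was in 11 (28.9%, against 17.4% and 8.86%), AAGATGGC (YY1) in 2 (5.26%, against 4.55% and 2.75%), the palindromic NRF1 consensus in 1 and a palindrome centred on CGCG in 0. The 11 ETS windows belonged to 10 genes, because Noc2l has overlapping windows that were counted separately. None of these words overlaps another in the sequences shown. The E-box windows belonged to Imp4, Mybbp1a, Nop2, Pes1, Pno1, Utp20 and Wdr43, of which 4 are SSU processome genes. The 250 bases before the start, 5′ to 3′ on the strand of the gene, are given for Brix1, the most abundant gene (chr15:10485938-10486187, minus strand), for Utp20, the gene whose groups did not overlap (chr10:88826815-88827064, minus strand), and for Imp4 (chr1:34439579-34439828, plus strand) and Nop2 (chr6:125131633-125131882, plus strand), which carry more than 1 of these words, with the matched words in capitals. The E-box of Utp20 lies in the 50 bases after the start and is not in the stretch shown. The window of Pno1 holds both the E-box and the NRF1 word, but neither lies within the 250 bases before its start.
Brix1: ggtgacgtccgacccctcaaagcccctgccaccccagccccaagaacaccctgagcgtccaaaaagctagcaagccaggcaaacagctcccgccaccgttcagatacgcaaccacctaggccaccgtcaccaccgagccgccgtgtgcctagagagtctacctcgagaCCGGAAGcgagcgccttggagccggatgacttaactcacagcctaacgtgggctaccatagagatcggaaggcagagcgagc
Utp20: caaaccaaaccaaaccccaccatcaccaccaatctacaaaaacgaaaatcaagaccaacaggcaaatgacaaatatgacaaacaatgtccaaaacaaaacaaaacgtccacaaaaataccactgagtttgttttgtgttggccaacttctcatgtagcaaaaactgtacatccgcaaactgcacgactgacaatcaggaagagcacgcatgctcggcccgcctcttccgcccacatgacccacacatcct
Imp4: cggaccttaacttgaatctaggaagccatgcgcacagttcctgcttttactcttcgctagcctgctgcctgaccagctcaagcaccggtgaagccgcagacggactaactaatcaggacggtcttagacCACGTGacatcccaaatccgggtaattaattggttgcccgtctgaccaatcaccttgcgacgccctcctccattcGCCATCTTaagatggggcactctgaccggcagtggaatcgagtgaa
Nop2: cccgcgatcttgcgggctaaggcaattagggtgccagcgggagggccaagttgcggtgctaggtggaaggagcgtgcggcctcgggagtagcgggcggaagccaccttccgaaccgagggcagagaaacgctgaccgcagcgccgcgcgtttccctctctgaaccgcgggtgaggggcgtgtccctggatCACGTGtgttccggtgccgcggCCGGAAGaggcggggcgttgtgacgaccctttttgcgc

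Brix1 carries the ETS core 82 bases before the start, and Nop2 carries the E-box and the ETS core 60 and 38 bases before it. In Imp4 the E-box begins 121 bases before the start and the YY1 word, on the other strand, 46 bases before it. A match is a description of the letters only.

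Between the groups, no gene of the list passed the transcriptome-wide test. The edgeR quasi-likelihood test with Benjamini-Hochberg adjustment called 0 of the 42 genes and 0 of all 13146 genes (0.0%), each of the 42 with an adjusted p of 1.0. DESeq2 called 20 of 13002 genes with an adjusted p (0.154%) and 0 of the 42. At an unadjusted p under 0.05, edgeR gave 1 of the 42 (Utp20), against 369 of 13146 (2.81%), limma-voom also gave 1 of the 42, against 863 of 13146 (6.56%), and in 1 of the 42 (Utp20 again) the groups did not overlap, against 2.98% of all genes tested (1.44% higher and 1.54% lower).

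The estimates leaned to higher values in the knockdown-labelled libraries without passing the test. Of the 42 log2 fold changes 31 were positive (73.8%), against 46.6% of all genes tested, and their median was 0.26, against −0.05 for all genes tested. This list and the other pathway lists were chosen with earlier results of these data known. Of the 140 other pathway genes tested, described below, 62.1% were positive, with a median of 0.11. Among genes over 100 CPM, 14 of 17 of the list were positive with a median of 0.23, against 45.2% and −0.04 of the 1303 tested genes in that range. The median of all 42 genes, 0.26, depended on single libraries: it was 0.10 without control replicate 2, 0.14 without knockdown-labelled replicate 3, and 0.17 without knockdown-labelled replicate 2 or 4. In 18 of the 42 genes the 95% interval of the fold change lay within 2-fold either way, and the median half-width was 1.47-fold for the 17 genes over 100 CPM and 2.47-fold for the 15 genes under 20 CPM.

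**Figure D2:**
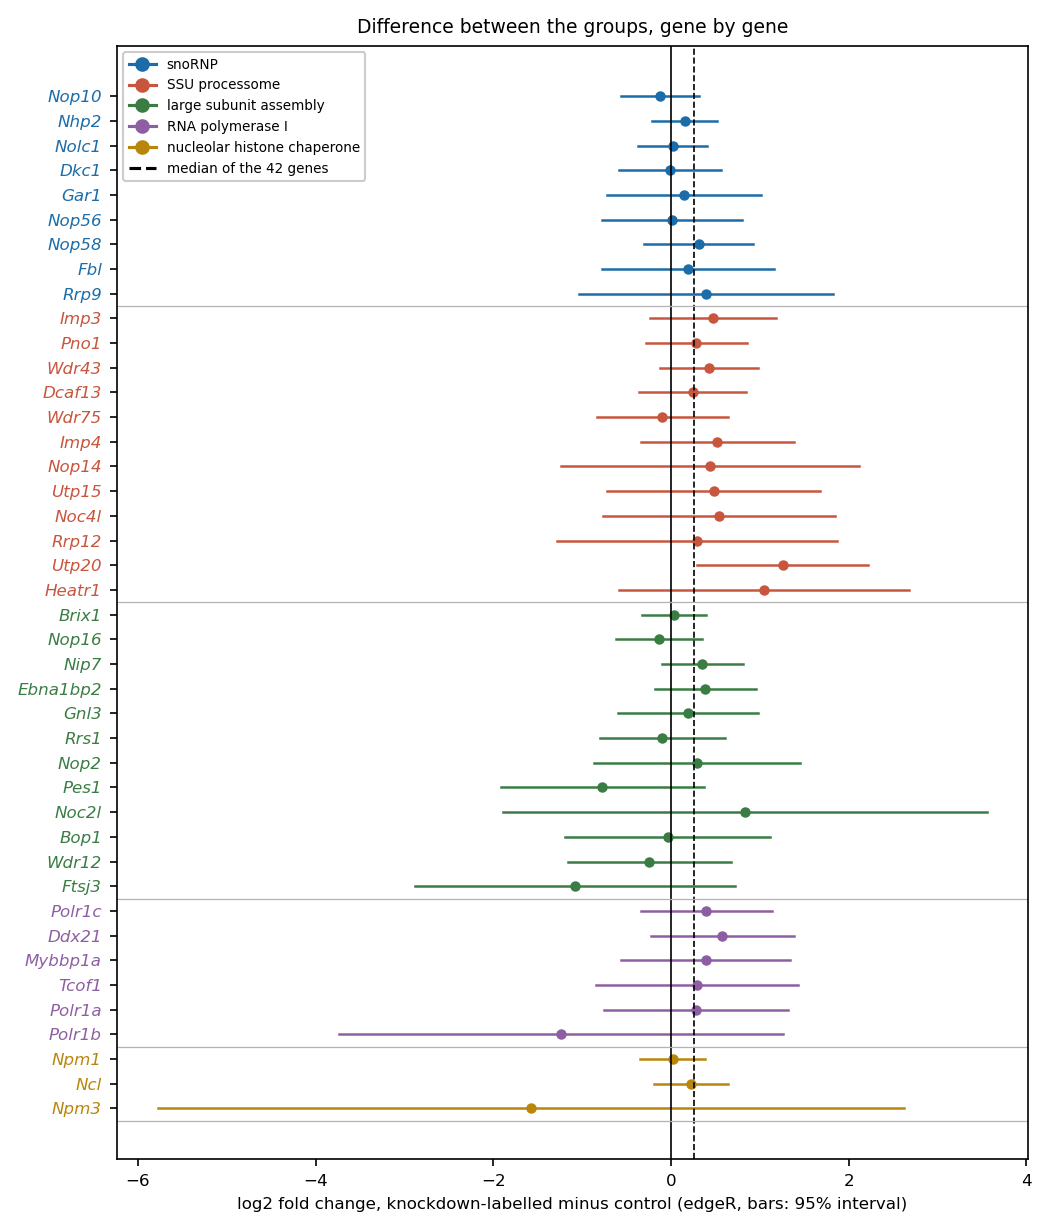
Log2 fold change of each gene, knockdown-labelled minus control, from edgeR (point) with its 95% interval (bar), coloured by role. The interval of Utp20 (0.29 to 2.22) is the single one that leaves out 0, and the dashed line marks the median of 0.26.

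Genes of RNA polymerase I and ribosomal DNA transcription were measured at low levels except Polr1c, and none passed the test. Of the 6, 5 had positive log2 fold changes (median 0.34, and 0.10 without knockdown-labelled replicate 2). Polr1c, a subunit shared by RNA polymerases I and III, was at 124, 76.8, 114 and 136 CPM in control replicates 1 to 4 and at 67.0, 211, 168 and 147 CPM in knockdown-labelled replicates 1 to 4. Its lowest and its 3 highest values were all in the knockdown-labelled group (log2 fold change 0.40, SE 0.33, edgeR adjusted p = 1.0). Ddx21, an RNA helicase that links transcription by RNA polymerase I to rRNA processing, was at 57.3, 19.7, 39.8 and 33.6 CPM among controls against 40.1, 45.2, 73.4 and 65.6 CPM among knockdown-labelled ones. Control replicate 1 lay among the knockdown-labelled values, and the other 3 controls lay below all of them (0.58, SE 0.36, unadjusted p = 0.139).

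Polr1b was the most uneven of the 6. It was at 13.7, 1.07, 8.01 and 21.4 CPM among controls against 6.15, 0.972, 11.2 and 0.501 CPM among knockdown-labelled ones, with high and low libraries in both groups (log2 fold change −1.24, SE 1.12). The last of these rests on 16 counts. Polr1a, the catalytic subunit, ranged from 7.73 to 20.5 CPM among controls against 10.1 to 29.6 CPM among knockdown-labelled ones, and the treacle gene Tcof1 from 7.68 to 20.2 and from 8.75 to 23.6 CPM. Mybbp1a, a nucleolar Myb-binding protein, averaged 23.2 ± 4.24 CPM in the controls (SD, n = 4) and stood at 59.4 CPM in knockdown-labelled replicate 2, with 18.8 to 22.4 CPM in the other 3 of that group.

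No snoRNP gene passed the test. Of the 9, 7 had positive log2 fold changes with a median of 0.14, which was 0.057 to 0.063 without control replicate 2 or 3 or knockdown-labelled replicate 3 or 4, and 6 of the 9 intervals lay within 2-fold. Nop10 was at 1000.3, 969, 856 and 660 CPM in control replicates 1 to 4 and at 572, 787, 886 and 955 CPM in knockdown-labelled replicates 1 to 4, so that the groups overlapped (log2 fold change −0.12, 95% interval −0.56 to 0.31). Nhp2 was at 551, 400, 427 and 602 CPM among controls against 530, 562, 522 and 590 CPM among knockdown-labelled ones. Its knockdown-labelled values lay inside the range of the controls, with a coefficient of variation of 5.64% against 19.6%.

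Nolc1, a chaperone of snoRNPs, had a coefficient of variation of 9.67% and 10.7% in the groups, at 121 to 150 CPM among controls and 121 to 157 CPM among knockdown-labelled ones (log2 fold change 0.02, 95% interval −0.37 to 0.40). Nop58, a scaffold of box C/D snoRNPs, was at 134, 55.9, 105 and 123 CPM among controls against 116, 122, 122 and 158 CPM among knockdown-labelled ones. Control replicate 2 was the low library (0.31, SE 0.27). Dkc1 averaged 129 ± 32.5 and 129 ± 36.2 CPM (SD, n = 4 each), and Nop56 47.6 ± 12.8 and 48.1 ± 20.8 CPM. Fbl, the methyltransferase, was at 8.28 to 26.1 CPM among controls against 14.9 to 20.0 CPM among knockdown-labelled ones. Rrp9, a protein of the U3 snoRNP, was at 4.69 to 13.2 CPM and at 5.89 to 25.5 CPM, and Gar1 at 21.1 to 39.2 and 13.9 to 38.6 CPM.

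Of the 12 SSU processome genes 11 had a positive log2 fold change, with a median of 0.46, and Utp20 had the smallest p of the 42. Without control replicate 2 the median was 0.28, below the 0.31 of the RNA polymerase I genes in the same fit, and whether the roles differ in it was not tested. Utp20, a very large scaffold of the processome, was at 9.97, 6.43, 6.77 and 9.29 CPM in controls 1 to 4, averaging 8.11 ± 1.78 (SD, n = 4). It was at 16.7, 21.5, 26.0 and 13.3 CPM in knockdown-labelled libraries 1 to 4, averaging 19.4 ± 5.54 (SD, n = 4). All 4 knockdown-labelled values lay above all 4 controls (log2 fold change 1.26, SE 0.43, unadjusted p = 0.0154, edgeR adjusted p = 1.0). These values rest on 204 to 399 counts per control library and 84 to 426 per knockdown-labelled one. The unadjusted p was 0.0531 without knockdown-labelled replicate 3.

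Heatr1, another large scaffold (UTP10 in yeast) needed for rRNA transcription as well as processing, was at 7.25, 0.914, 7.34 and 7.52 CPM among controls against 9.52, 18.2, 6.93 and 12.9 CPM among knockdown-labelled ones. Control replicate 2 stood at about 29 counts, and knockdown-labelled replicate 3 lay below 3 of the controls (log2 fold change 1.05, SE 0.73). Wdr43, of the UTP-A subcomplex, was at 278, 154, 157 and 238 CPM among controls against 217, 238, 309 and 348 CPM among knockdown-labelled ones. The groups overlapped over control replicates 1 and 4 (0.43, SE 0.25, unadjusted p = 0.117).

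Imp3, which holds U3 to the precursor, was at 174, 66.5, 119 and 177 CPM among controls against 131, 215, 172 and 227 CPM among knockdown-labelled ones (log2 fold change 0.47, SE 0.32). Its partner Imp4 averaged 57.6 ± 16.2 and 82.6 ± 41.4 CPM (SD, n = 4 each; 0.52, SE 0.38). Pno1, which stays on the pre-40S particle into the cytoplasm, was at 206, 138, 107 and 190 CPM among controls against 147, 202, 179 and 252 CPM among knockdown-labelled ones (0.29, SE 0.25). In each of these genes the lowest library was a control and the highest a knockdown-labelled one. Dcaf13, the most abundant SSU gene by CPM, averaged 443 ± 174 CPM among controls and 524 ± 70.9 CPM among knockdown-labelled ones (SD, n = 4 each). Nop14 ranged from 3.40 to 48.1 CPM among controls against 18.6 to 35.9 CPM among knockdown-labelled ones, and its binding partner Noc4l from 7.22 to 10.7 and from 5.83 to 26.6 CPM. Utp15 was at 6.52 to 32.2 and 14.5 to 50.7 CPM, and Rrp12, an export factor of pre-40S particles, at 2.07 to 10.0 and 4.01 to 12.9 CPM. Wdr75 was the single SSU gene with a negative estimate, at 45.7 to 130 CPM and 58.7 to 82.7 CPM (−0.10, SE 0.33).

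The large-subunit assembly genes were evenly divided, 6 leaning higher and 6 lower, around a median log2 fold change of 0.00033, between −0.030 and 0.088 with 1 library left out. Brix1 was at 3224, 2568, 2262 and 2771 CPM in control replicates 1 to 4 and at 2198, 2844, 2711 and 3353 CPM in knockdown-labelled replicates 1 to 4. The lowest and the highest of the 8 libraries were both knockdown-labelled (log2 fold change 0.04, SE 0.16), and the 95% interval ran from 0.799 to 1.32 times the control level. Its direction turned without control replicate 3 (−0.042) or knockdown-labelled replicate 4 (−0.071). Nop16 was at 213, 233, 241 and 197 CPM among controls against 138, 273, 182 and 211 CPM among knockdown-labelled ones (−0.14, SE 0.22). The controls lay inside the range of the knockdown-labelled libraries.

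Nip7, which acts in the processing of the 60S precursor, was at 343, 274, 256 and 356 CPM among controls against 311, 442, 496 and 316 CPM among knockdown-labelled ones (log2 fold change 0.35, SE 0.20). Ebna1bp2, the homologue of a yeast early pre-60S factor, was at 377, 312, 224 and 346 CPM among controls against 244, 517, 389 and 494 CPM among knockdown-labelled ones (0.39, SE 0.26). In both genes the highest 2 libraries were knockdown-labelled and the lowest was a control. Gnl3, the nucleostemin GTPase, averaged 178 ± 57.1 and 202 ± 82.1 CPM (SD, n = 4 each), and Rrs1, of the complex that brings in the 5S RNP, 33.8 ± 8.91 and 31.5 ± 6.66 CPM.

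Negative estimates in this role were largest for Ftsj3 and Pes1. Ftsj3, an rRNA methyltransferase-like factor, was at 8.53, 8.22, 24.6 and 23.3 CPM among controls against 1.59, 1.94, 14.0 and 12.8 CPM among knockdown-labelled ones. The groups overlapped, and the 2 lowest values rest on 8 and 16 counts (log2 fold change −1.08, SE 0.81). Pes1 was at 15.5, 26.4, 10.8 and 17.8 CPM among controls against 5.55, 16.3, 13.1 and 6.36 CPM among knockdown-labelled ones (−0.77, SE 0.51). Its PeBoW partners Bop1 and Wdr12 had estimates of −0.04 (SE 0.52) and −0.24 (SE 0.41). The rRNA cytosine methyltransferase gene Nop2 was at 9.10 to 31.1 and 11.5 to 28.4 CPM, and Noc2l at 0 to 13.5 and 5.35 to 20.0 CPM, with no count in control replicate 2.

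Of the 3 nucleolar histone chaperones, Npm1 and Ncl were among the most precisely measured genes of the list and Npm3 was near the limit of detection. Npm1, nucleophosmin, was at 2405, 2356, 1811 and 1666 CPM in control replicates 1 to 4 and at 1854, 1967, 2508 and 2009 CPM in knockdown-labelled replicates 1 to 4. The ranges overlapped, with a 95% interval of 0.786 to 1.30 times the control level (log2 fold change 0.02, SE 0.16), and the estimate was negative without control replicate 3 or 4, without knockdown-labelled replicate 3, without knockdown-labelled replicates 1, 2 and 3 together, or with no filter on low counts. Ncl, nucleolin, was at 147, 116, 139 and 149 CPM among controls against 127, 166, 159 and 192 CPM among knockdown-labelled ones. Knockdown-labelled replicates 2, 3 and 4 exceeded every control and replicate 1 lay within their range (0.23, SE 0.19, unadjusted p = 0.256). Npm3 was at 4.16, 4.85, 0 and 0.233 CPM among controls against 1.98, 0, 0.693 and 0.470 CPM among knockdown-labelled ones, from 0 to 154 counts, and its estimate (−1.57, SE 1.88) turned positive with limma-voom (0.074).

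The genes of the list tended to be high or low together in a library, in both groups. Control replicates 1 to 4 were the lowest control in 4, 20, 10 and 8 of the 42 genes, where over all genes tested the shares were 25.4%, 26.5%, 21.7% and 20.3%. Knockdown-labelled replicates 1 to 4 were the lowest of their group in 23, 9, 4 and 6 of the 42, against 24.9%, 24.4%, 22.6% and 20.3%. Control replicate 2 and knockdown-labelled replicate 1 thus held most of the low values. Of the pathway genes outside the list, described below, some lists were also lowest in sum in these 2 libraries. They were other SSU processome (2749 and 2680 CPM), other large-subunit (2686 and 2733 CPM) and other snoRNP genes (3022 and 3398 CPM). Other RNA polymerase I genes followed this order in the knockdown-labelled group, with their lowest sum in replicate 1 (4548 CPM). Among controls their lowest sum was in replicate 3 (4535 CPM), with 5328 CPM in replicate 2. Pre-rRNA nucleases did not follow this order in either group. For the 17 genes of the list over 100 CPM, the median deviation of the log2 level from its mean over 8 libraries was 0.23, −0.32, −0.18 and 0.027 in control replicates 1 to 4 and −0.22, 0.12, 0.19 and 0.26 in knockdown-labelled replicates 1 to 4. Over all 1303 tested genes of that level it stayed between −0.077 and 0.081. That narrow range is in part set by the TMM factors, which centre the bulk of genes in every library. For the 17 genes the ranges of the groups overlapped over most of their length, −0.32 to 0.23 in controls and −0.22 to 0.26 in knockdown-labelled libraries. Control replicate 1 lay with the high knockdown-labelled libraries and knockdown-labelled replicate 1 with the low controls.

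**Figure D3:**
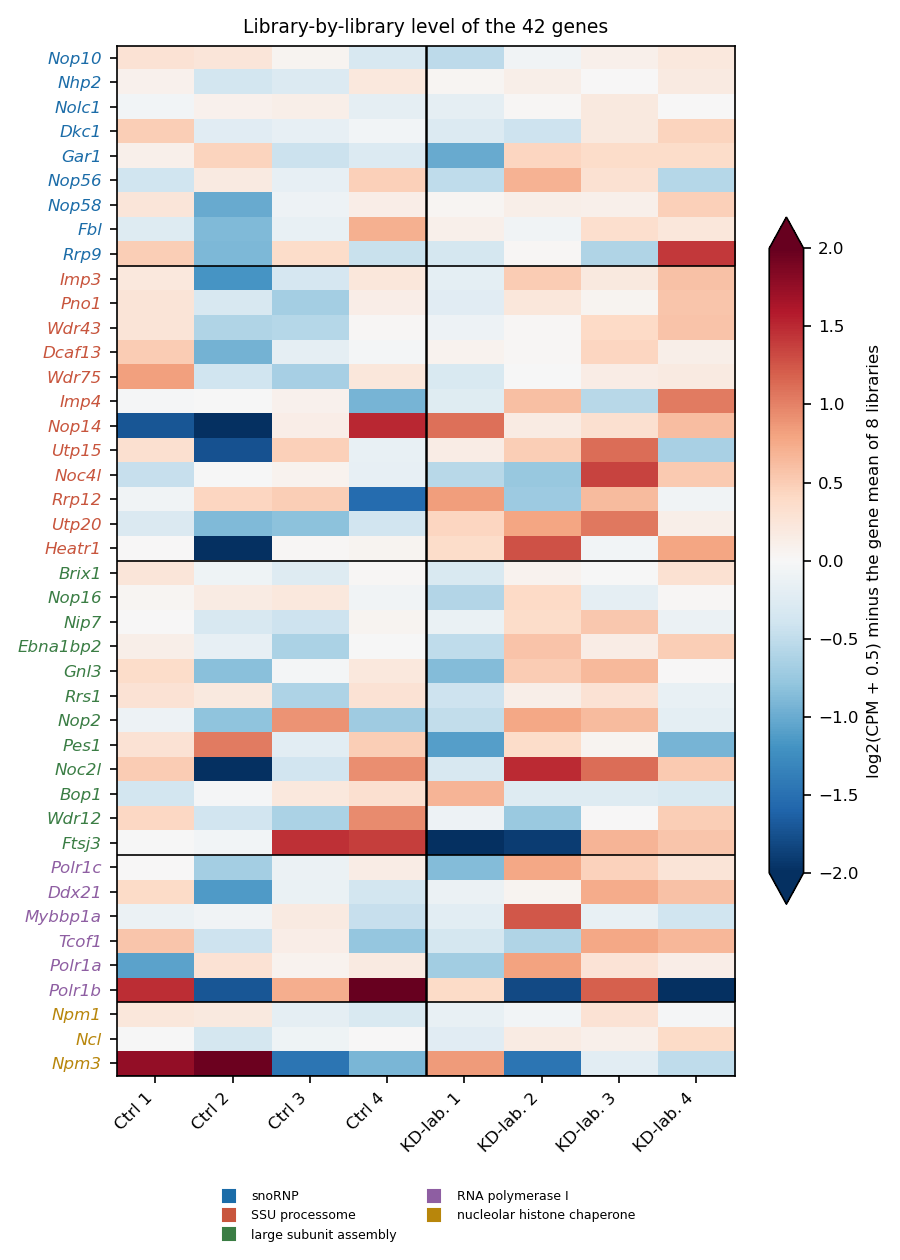
Deviation of each gene's log2(CPM + 0.5) from its mean over 8 libraries (colour, clipped at −2 and 2), with libraries in columns (controls left of the line, knockdown-labelled right) and genes in rows by role. Control replicate 2 is blue over much of the SSU processome, and genes under 20 CPM such as Heatr1, Ftsj3, Polr1b and Npm3 hold many of the deepest colours.

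The oocyte markers were highest where these genes were lowest. Their summed level was 3424, 5911, 4721 and 4759 CPM in control replicates 1 to 4 and 5895, 3859, 3729 and 4352 CPM in knockdown-labelled replicates 1 to 4. The 2 libraries with the highest sums, control replicate 2 and knockdown-labelled replicate 1, were the 2 in which the 17 abundant genes of the list were lowest. Without Oosp1, the 9 other oocyte markers summed to 388, 540, 555 and 479 CPM among controls and to 557, 368, 286 and 398 CPM among knockdown-labelled ones. Control replicate 3 is then among the high libraries too. The 2-cell burst markers were also highest in these 2 libraries, at 1504 and 1490 CPM, against 850 to 1174 CPM in the other 6. Depth did not order the libraries in the same way: knockdown-labelled replicate 1 was the shallowest, and control replicate 2 held 35007621 counts. The part of these values in the levels of the list was not tested.

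**Figure D4:**
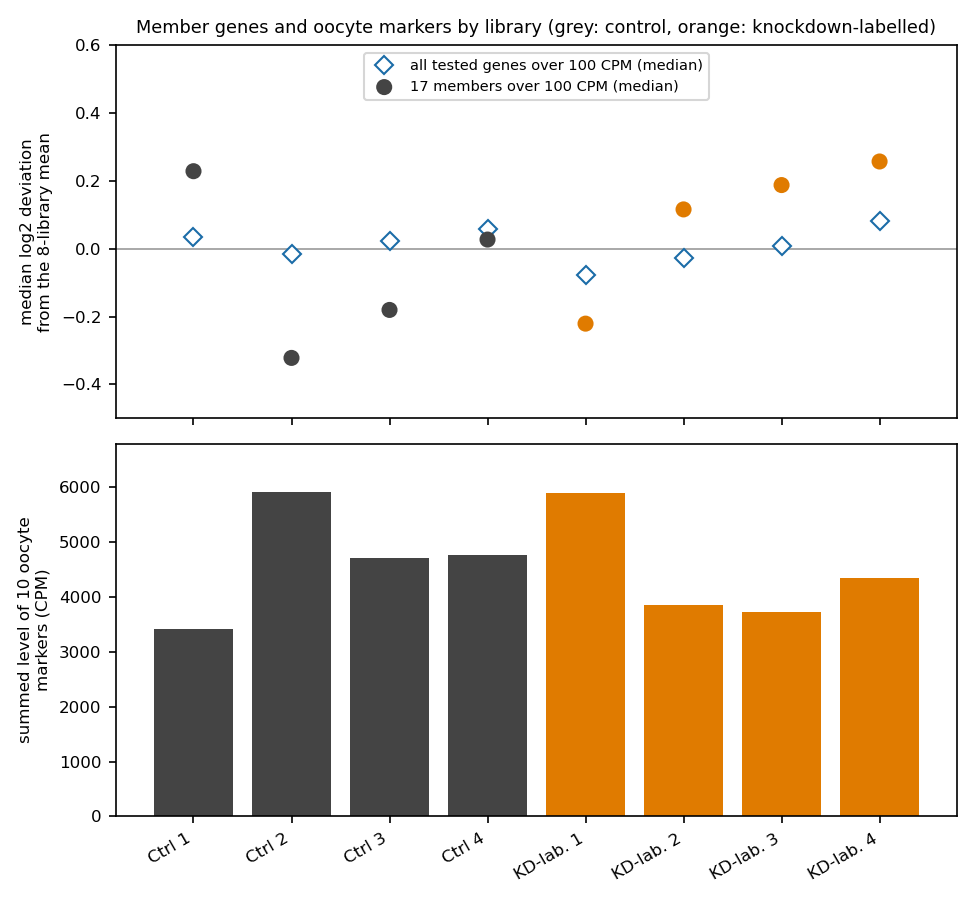
Top, median log2 deviation in each library of the 17 list genes over 100 CPM (filled points) and of all 1303 tested genes over 100 CPM (open diamonds). Bottom, summed CPM of 10 oocyte markers per library (bars from 0), where control replicate 2 and knockdown-labelled replicate 1 have the highest bars (5911 and 5895 CPM) and the lowest filled points (−0.32 and −0.22).

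Other genes of the pathway also had no member past the adjusted test. Of 151 symbols 144 were matched in the table and 140 were tested. Of these, 87 leaned higher and 53 lower (median log2 fold change 0.11), and 5 had an unadjusted p under 0.05, 4 higher and 1 lower, against 1.1% and 1.71% of all genes tested. The 40 other SSU processome genes had a median of 0.040, with 22 positive, beside 0.46 for the 12 above, and that difference was not tested. The 47 other large-subunit genes had a median of 0.18, the 18 other RNA polymerase I genes 0.11, and the 11 other snoRNP genes 0.14.

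Pre-rRNA nucleases and their cofactors, with 23 genes tested, held 3 of the 5 genes with an edgeR unadjusted p under 0.05. Over all genes tested that share was 2.81%. In 2 of the 140 pathway genes tested, Rpp38 and Xrn2, the groups did not overlap, against 2.98% of all genes tested. Rpp38, a protein of RNase P and RNase MRP, was at 48.8, 21.8, 35.1 and 53.3 CPM among controls against 78.9, 69.0, 93.8 and 69.0 CPM among knockdown-labelled ones. All 4 of these lay above every control (log2 fold change 0.97, SE 0.31, unadjusted p = 0.0102, edgeR adjusted p = 1.0). Xrn2, the 5′ to 3′ exonuclease that trims rRNA precursors, was at 18.7, 19.4, 23.2 and 29.2 CPM among controls against 44.6, 32.4, 41.1 and 31.1 CPM among knockdown-labelled ones, again without overlap (0.72, SE 0.30, unadjusted p = 0.0353, edgeR adjusted p = 1.0). Coil, the coilin gene of Cajal bodies, averaged 28.1 ± 13.8 and 55.8 ± 16.4 CPM, and Nvl, an ATPase of pre-60S assembly, 99.5 ± 55.1 and 51.3 ± 18.7 CPM (SD, n = 4 each). Mphosph6, an exosome cofactor in 5.8S rRNA maturation, was the most abundant gene of all these lists, at 4548, 11891, 7427 and 7577 CPM among controls against 7847, 5959, 4625 and 7468 CPM among knockdown-labelled ones. Its highest library was control replicate 2, where the 12 SSU genes had a median deviation of −0.74. The other pathway genes over 1000 CPM had overlapping groups. Their log2 fold changes were 0.18 (Snu13, SE 0.14), 0.14 (Znhit3, SE 0.24), −0.16 (Taf1d, SE 0.18) and 0.11 (Polr2f, SE 0.12). Among the other genes with the smallest p of their lists, Rcl1 averaged 6.30 ± 5.79 and 14.9 ± 3.43 CPM and Tsr1 32.9 ± 12.7 and 20.9 ± 7.18 CPM, both of the small-subunit pathway. Rrp15, of large-subunit assembly, averaged 90.9 ± 57.8 and 170 ± 62.8 CPM, and Znhit6, of box C/D assembly, 226 ± 67.2 and 311 ± 94.3 CPM. The polymerase subunit genes Cd3eap and Polr2k averaged 20.5 ± 5.89 and 32.5 ± 15.7 CPM, and 523 ± 92.0 and 433 ± 118 CPM (SD, n = 4 each). Npm2, the oocyte nucleoplasmin of the nucleolus-like body, averaged 241 ± 41.7 and 224 ± 62.2 CPM.

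Some of these genes carry snoRNA genes within their span on the same strand. The annotation places 19 such snoRNAs in Nop56, Nop58, Dkc1, Wdr43, Gnl3 and Ncl, of which 7 had no count and 4 had over 100 counts in the 8 libraries together. The most abundant, Gm24451 in Nop56, was at 17.1, 27.8, 19.1 and 41.8 CPM among controls against 38.9, 11.4, 19.8 and 21.3 CPM among knockdown-labelled ones, with overlapping groups. Snora75 in Ncl was at 1.07 to 4.45 and 0 to 3.37 CPM. A short RNA is poorly kept by a library for mRNA-sized fragments, and its reads can come from the host's precursor. Of the non-coding snoRNA host genes, 9 were tested, 3 with positive log2 fold changes, and Gas5 was the most abundant at 515 ± 75.8 and 434 ± 63.3 CPM (SD, n = 4 each).

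Genes of the p53 pathway, which senses faulty ribosome assembly, did not pass the test either. Of 7 tested genes 2 had positive log2 fold changes, against 46.6% of all genes tested. Mdm4, an inhibitor of p53, was the 1 gene of the 7 with an unadjusted p under 0.05, against 1.71% of all genes tested in the lower direction. Mdm4 was at 2638, 2576, 2478 and 2342 CPM among controls against 1943, 2024, 1652 and 2063 CPM among knockdown-labelled ones. All 4 knockdown-labelled values lay below all controls, as in 1.54% of all genes tested (log2 fold change −0.39, SE 0.12, unadjusted p = 0.00913, edgeR adjusted p = 1.0). The p53 gene Trp53 was at 1.59 to 12.3 and 1.82 to 18.4 CPM, and its target Cdkn1a at 30.3 to 64.4 and 29.6 to 59.3 CPM.

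Counting limits apply to some of the genes named. In 18 of the 42 the gene span overlaps a gene on the other strand, Wdr43, Heatr1, Nhp2, Pno1, Dkc1, Pes1 and Imp4 among them, and no source used here states the strand setting of the counting. Transcripts of other annotated genes share at least 200 bases at 95% identity or more with 9 of the 42 (Ddx21, Imp3, Imp4, Noc2l, Nop56, Npm1, Npm3, Pes1 and Wdr12). For Npm1 the 4 such genes summed to 13.1 CPM beside 2072 CPM, and for Wdr12 the 6 such genes summed to 66.4 CPM beside 39.5 CPM. Of the sum for Wdr12, 50.4 CPM was Tmod3, which shares a stretch of 206 bases. Vmn1r88, at 12.5 CPM, shares 1377 bases, so that Wdr12 is uncertain. In GRCm38 (GENCODE M21), Utp20 lies on chromosome 10 from 88746607 to 88826804 (minus strand), Brix1 on chromosome 15 from 10474779 to 10485947 (minus strand), Heatr1 on chromosome 13 from 12395027 to 12440289 (plus strand), Npm1 on chromosome 11 from 33152287 to 33163206 (minus strand) and Wdr43 on chromosome 17 from 71615895 to 71659031 (plus strand), and all are protein-coding.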

How the data were processed

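RNA of 8 samples was sequenced, and the authors deposited raw expected counts per gene. Per the submitters' processing notes, the tools were RSEM 1.2.28, STAR 2.7.3a and Trim Galore 0.6.10, on GRCm38 (mm10). No source used here states the annotation, strand setting or filters. Per the labels' protocols, TRIzol was used for extraction and an NEBNext Ultra kit for library preparation. RSEM shares reads among similar genes by estimation.

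Expected counts were rounded, which altered 4.22% of values. Genes were filtered with filterByExpr (minimum count 10, minimum total 15), normalised with TMM factors and compared with edgeR 4.0.16 in R 4.3.3 (quasi-likelihood, robust, group as the only term), with Benjamini-Hochberg adjustment over all 13146 genes and a threshold of 0.05. Library totals were 4726160 to 43748629 counts, and counts without molecular identifiers are not molecules. Standard errors come from the F statistic, and 95% intervals from its degrees of freedom. The common biological coefficient of variation was 0.987. Levels per kilobase use exon lengths of GENCODE M21. Near-identical copies were sought with blastn among GENCODE M21 transcripts. Alternatives were other scalings, filters and tests (DESeq2 1.42.0, limma-voom 3.58.1), a replicate block, leaving out libraries and thinning.

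The members and lists were chosen with earlier results of these data known. Named in full are, in each role, the 2 members highest per kilobase, the 2 with the smallest p, and members that pass or do not overlap. In the other pathway lists the 2 smallest p were named, and genes over 1000 CPM and further members were chosen after their values were seen.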

Additional observations from a re-analysis of the deposited data

Results flagged for a closer look

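In 7 of 88 groups of 4 libraries examined (42 genes, Polq and the list's median deviation, each in both groups), 1 library lay far from the other 3 by Dixon's criterion on the gap to the nearest value, where chance gives about 1 in 20. Heatr1 was at 0.914 CPM in control replicate 2, against 7.25 to 7.52 CPM in the other controls. Imp4 was at 33.6 CPM in control replicate 4, against 63.8 to 68.8 CPM, and Rrs1 at 20.5 CPM in control replicate 3, against 36.7 to 39.1 CPM. Gar1 was at 13.9 CPM in knockdown-labelled replicate 1, against 37.0 to 38.6 CPM, and Bop1 at 15.5 CPM in the same library, against 7.58 to 7.90 CPM. Mybbp1a was at 59.4 CPM in knockdown-labelled replicate 2, against 18.8 to 22.4 CPM, and Nop58 at 158 CPM in knockdown-labelled replicate 4, against 116 to 122 CPM. The 7 values came from 6 of the 8 libraries.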

How the results depend on the processing

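No gene of the list was called under any of the 19 alternatives, while DESeq2 called 20 genes among all tested and the other 18 alternatives called 0. The median log2 fold change of the list was positive under all 19, from 0.10 to 0.34, the same limits as with 1 library left out, and 27 to 35 of the genes were positive. By gene, 19 were positive and 3 negative in every fit, and 20 took both signs. The median of all genes tested was −0.36 without knockdown-labelled replicates 1, 2 and 3 and −0.16 with no filter, against −0.05. Without those 3 libraries, where the lone knockdown-labelled library is assumed to vary like the controls, the log2 fold change was 0.073 for Polq, 0.14 for Nop10, −0.027 for Npm1 and 0.73 for Utp20 (unadjusted p = 0.424). With 1 library left out, Polq ran from −0.47 to −0.11, Brix1 from −0.071 to 0.14, Npm1 from −0.084 to 0.11, Nop10 from −0.24 to 0.0084, Nop16 from −0.31 to 0.0060 and Npm3 from −2.55 to −0.91. Npm1 was −0.021 with no filter, and Npm3 0.074 with limma-voom. The cause of these turns was not tested. Of the 42 genes, 0 to 3 had an edgeR unadjusted p under 0.05 with 1 library left out. There were 3 without control replicate 1 or knockdown-labelled replicate 1, 2 without control replicate 4 and 0 without knockdown-labelled replicate 3. With all libraries it was 1 of the 42, against 2.81% of all genes tested. The shares over all genes in the fits with 1 library left out are not given here. With the replicate number as a block the list median was 0.25, 0 genes were called and Utp20 had an unadjusted p of 0.0597. Over all genes tested, libraries with the same number did not deviate together (correlations −0.075, 0.0049, −0.0081 and 0.0085). A factor that moves few genes would not show in these correlations, so they cannot decide whether the numbers pair the samples. For the 15 genes under 20 CPM the median coefficient of variation was 49.0% in the controls and 47.1% in the knockdown-labelled group, 3 of whose libraries are much shallower.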
